A study of Mus musculus with 2 samples.

Results

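Genes for RNA methylation and modification enzymes were compared between 2 Affymetrix mouse arrays, 1 of cells after 3 h of culture and 1 of cells at the start (0 h). Members were the probe sets annotated to exactly 1 gene whose symbol begins with Mettl, Trmt, Nsun, Pus and a digit, Alkbh, Ftsj or Adat. This gave 68 of the 17874 genes named on the arrays, each measured by a single probe set. The rule reads names only and no measured value, though it was chosen with earlier results of these data known. Because it goes by name, it also takes in methyltransferases of proteins, the antisense transcript Alkbh3os1 and the pseudogene Mettl4-ps1.

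Both samples were CFU-E cells (colony-forming unit erythroid, the progenitors that normally need erythropoietin) from fetal livers of EpoR-/- BALB/c embryos at gestational day 13.5. The genotype label reads Epo KO, whereas the protocol names the receptor, and the strain is labelled for the 0 h sample alone. Pools of 40 to 50 livers were freed of red cells by lysis, and antibodies against surface markers of maturing erythroid cells, platelet precursors and white blood cells then took out other cells. The cells were then deprived of growth factors for 1 h. The 3 h sample was kept for 3 h in Panserin medium, without added growth factors per the protocol but with "supplemental growth factors" per its treatment label. The 0 h sample was lysed at once and is labelled as control. Per the protocol both samples lack the receptor, and there was no wild-type array here. A single array per time point gives no error and allows no test of any difference, so how precise the values are is not known.

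Modified bases are part of most RNAs. Transfer RNAs carry the most kinds, laid down by methyltransferases, pseudouridine synthases and deaminases that act on single positions and affect folding, stability and decoding. In mRNA the best known mark is m6A, N6-methyladenosine, written by a complex with the METTL3 and METTL14 proteins, removed by ALKBH5 and FTO and read by YTH proteins. Ribosomal and mitochondrial RNAs have enzymes of their own. In red cell biology the clearest link is the pseudouridine synthase PUS1, whose loss in humans causes a sideroblastic anaemia with myopathy.

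All values are log2 expression values made with RMA, and each difference subtracts the 0 h value from the 3 h value. Genes entered the counts if at least 1 array reached 5.70, called the floor here, which is the median over all genes and both arrays. This held for 52 members and left 16 aside. Of the 52, 51 reached the floor on both arrays and Trmt44 only at 3 h, so the floor fixed the direction of Trmt44. Levels of different probe sets depend on the probes and are not ranked against each other.

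Most of these genes, like most of all genes, differed little between the arrays, and their small differences leaned downwards at 3 h. Of the 52 members, 35 were lower and 17 higher at 3 h. That is 67.3% lower, beside 48.5% of all 9284 genes at or above the floor. The median difference was -0.14 for the members and 0.01 for all genes. At least 1.5-fold, 3 members (5.77%) were lower, beside 4.80% of all genes, and 1 (1.92%) was higher, beside 6.94% of all genes. The share lower by 1.5-fold was thus close to the background. No member reached 2-fold in either direction, where 0.872% of all genes were lower and 2.00% higher. At a smaller threshold, a difference of 0.32 on the log2 scale, 14 members (26.9%) were lower, beside 15.4% of all genes, and 2 (3.85%) were higher, beside 18.3%. The lean was therefore made of many differences below 1.5-fold. Differences smaller than 0.32 in either direction were found for 36 of the 52 members, beside 66.4% of all genes. Small differences were thus not particular to the members. None of these shares carries a test, and the genes were not shown to differ from other genes.

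The cell type named by the labels was checked against marker genes. Erythroid markers, 11 of them measured, all reached the floor on both arrays, among them Kit (9.03 at 3 h, 9.01 at 0 h) and Klf1 (12.31 at 3 h, 12.03 at 0 h), and 10 were higher at 3 h (median 0.57). The lower one was Epor (6.89 at 3 h, 7.08 at 0 h), the gene of the receptor that the protocol names as lacking. What this signal means for the genotype was not tested. The granulocyte and mast cell list was higher in 9 of 9 genes at or above the floor (median 1.06), with log2 values that summed to 78.3 at 3 h and 67.9 at 0 h. Camp, Lcn2 and Ngp among them reached the floor only at 3 h, so the floor fixed their direction. Over all 11 measured genes of the list 10 were higher, with a median of 0.88. Macrophage and monocyte markers were higher in 4 of 5 (median 0.80, sums 43.0 at 3 h and 39.8 at 0 h), and Vcam1 was lower (8.25 at 3 h, 9.22 at 0 h). The macrophage genes C1qa, C1qb, C1qc, Cd163, Mrc1, Cd5l, Cd68 and Adgre1 were below the floor on both arrays. Over all 13 measured genes of this list 8 were higher, with a median of 0.068. All 13 measured hepatocyte markers also reached the floor on both arrays, among them Afp (14.53 at 3 h, 14.60 at 0 h) and Alb (13.96 at 3 h, 14.15 at 0 h), and so did the granulocyte gene Mpo (12.15 at 3 h, 11.70 at 0 h). Transcripts of other cell types were thus present in both samples. Hepatocyte markers were lower in 11 of 13, whereas Krt8 (0.95) and Krt18 (0.88) were higher (list median -0.19, sums 148 at 3 h and 151 at 0 h). Of the megakaryocyte markers 3 of 4 were higher (median 0.27), and the only lymphoid marker at or above the floor, Ighm, differed by 0.74. The 3 higher megakaryocyte genes (Pf4, Gp9 and Gp1bb) and Ighm reached the floor only at 3 h, so the floor fixed their direction. Over all measured genes 3 of 5 megakaryocyte markers (median 0.065) and 3 of 5 lymphoid markers (median 0.068) were higher. These marker levels differed between the same 2 arrays as the members, and their part in the members' differences was not tested. In such bulk samples fewer cells of a type and less RNA per cell cannot be told apart.

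**Figure D1:**
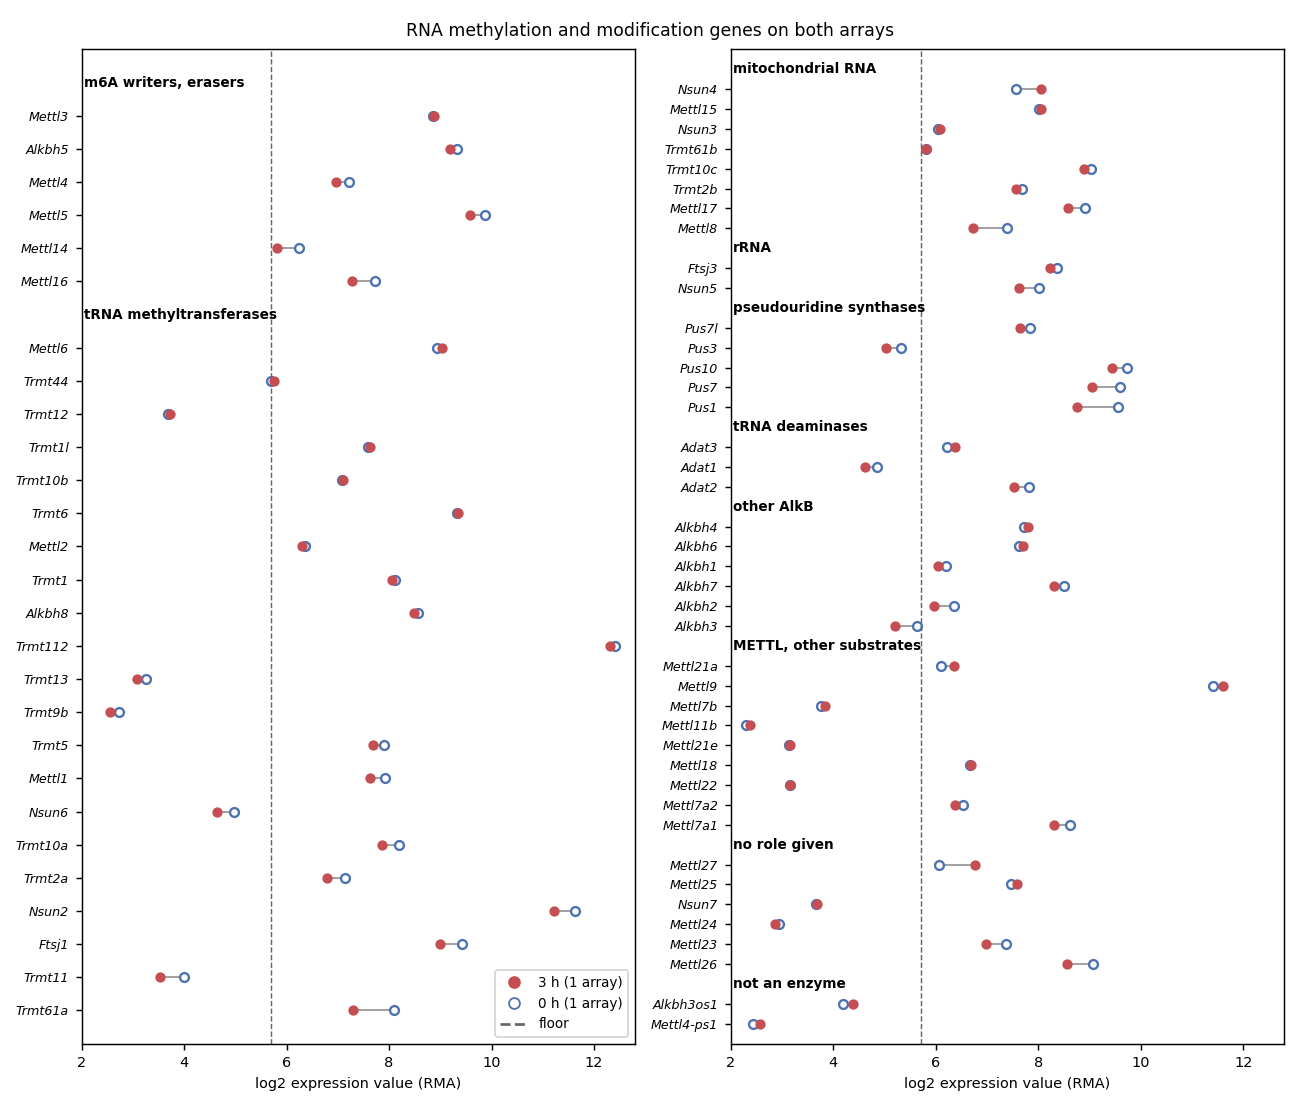
Log2 expression value (x axis) of each of the 68 members on the 3 h array (filled red) and the 0 h array (open blue), grouped by role and ordered by difference within a role, with the floor of 5.70 as a dashed line. Most red points lie close to or left of their blue points. The widest gaps are those of Trmt61a and Pus1, lower at 3 h, and Mettl27, higher at 3 h, has the widest in the other direction.

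The genes lower by at least 1.5-fold were Trmt61a, Pus1 and Mettl8. Trmt61a encodes the catalytic subunit of the enzyme that makes 1-methyladenosine in the T loop of tRNAs, a mark on the initiator tRNA among others. It had 7.29 at 3 h, against 8.10 at 0 h, a difference of -0.81 (1.75-fold lower), the 176th lowest of the 9284. Its RNA-binding partner subunit, Trmt6, had 9.34 at 3 h and 9.33 at 0 h, so the transcript of the catalytic subunit was lower beside a partner that differed by 0.01. Pus1, which makes pseudouridine in cytosolic and mitochondrial tRNAs, had 8.76 at 3 h, against 9.56 at 0 h, a difference of -0.80 (1.75-fold lower) and the 180th lowest. Mettl8, the enzyme for 3-methylcytidine in mitochondrial tRNAs, had 6.73 at 3 h, against 7.39 at 0 h, a difference of -0.66 (1.58-fold lower). These genes fall into 3 different roles, which are described below with their other members.

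The gene higher by at least 1.5-fold was Mettl27, a methyltransferase-like gene without a substrate given here. It had 6.77 at 3 h, against 6.07 at 0 h, a difference of 0.70 (1.62-fold higher), and its value at 0 h lay near the floor. Nsun4, which methylates the RNA of the small mitochondrial ribosomal subunit, came next with 8.06 at 3 h, against 7.55 at 0 h, a difference of 0.50 (1.42-fold higher). Just short of 1.5-fold on the lower side were Pus7 (-0.55) and Mettl26 (-0.51).

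Promoters of the 4 genes past 1.5-fold are shown to set the 3 lower genes beside the higher one. They are the 250 bases before the annotated start in RefSeq (GRCm38.p6), on the strand of the gene, with CpG dinucleotides in capitals. Coordinates are chr12:111677855-111678104 on the plus strand for Trmt61a, chr5:110780616-110780865 on the minus strand for Pus1, chr2:71055607-71055856 on the minus strand for Mettl8 and chr5:134932274-134932523 on the plus strand for Mettl27.
Trmt61a: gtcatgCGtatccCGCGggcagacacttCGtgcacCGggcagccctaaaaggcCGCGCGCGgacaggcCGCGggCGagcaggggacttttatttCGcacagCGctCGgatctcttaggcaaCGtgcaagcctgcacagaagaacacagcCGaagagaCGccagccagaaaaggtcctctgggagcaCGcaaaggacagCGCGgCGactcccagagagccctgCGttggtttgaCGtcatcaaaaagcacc
Pus1: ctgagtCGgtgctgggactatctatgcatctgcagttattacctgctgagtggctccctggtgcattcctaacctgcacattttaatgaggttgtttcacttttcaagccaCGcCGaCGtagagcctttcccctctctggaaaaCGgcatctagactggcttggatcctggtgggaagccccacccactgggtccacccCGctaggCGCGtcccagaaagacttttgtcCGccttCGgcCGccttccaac
Mettl8: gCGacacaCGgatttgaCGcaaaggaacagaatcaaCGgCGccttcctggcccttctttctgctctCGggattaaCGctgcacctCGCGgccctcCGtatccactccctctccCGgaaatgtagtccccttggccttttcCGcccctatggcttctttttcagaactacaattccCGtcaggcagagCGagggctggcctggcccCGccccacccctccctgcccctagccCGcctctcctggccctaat
Mettl27: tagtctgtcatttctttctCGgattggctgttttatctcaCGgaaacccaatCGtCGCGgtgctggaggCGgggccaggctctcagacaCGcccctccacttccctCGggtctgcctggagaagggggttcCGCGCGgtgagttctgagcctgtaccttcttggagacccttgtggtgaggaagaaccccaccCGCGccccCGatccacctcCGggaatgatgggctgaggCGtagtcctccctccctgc

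The windows shown hold 24 CpG dinucleotides for Trmt61a, 11 for Pus1, 16 for Mettl8 and 16 for Mettl27. Pus1 had 2 windows, and only the first is shown and counted for CpG. The median CpG count of the first window was 16 over the 46 members at or above the floor with a window, and also 16 over 7603 genes. Windows were searched on both strands for the letters of 5 motifs, and a gene with several windows counted when any of them matched. The 3 lower genes had none of the 5, and Mettl27 had a CCAAT box (CCAAT) and a GATA site (AGATAA). The E-box CACGTG, to which MYC and related factors bind, was in 6.52% of the 46 members, beside 10.2% of all genes. For the ETS site CCGGAAG the shares were 28.3% and 16.7%, for CCAAT 41.3% and 40.9%, for AGATAA 13.0% and 6.98%, and for the YY1 site AAGATGGC 6.52% and 2.66%. A match describes letters in a window and no binding, and none of these shares was tested.

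Among the writers and erasers of m6A, all 6 measured genes reached the floor, 5 were lower at 3 h, and the median was -0.27. The catalytic subunit gene of the mRNA writer, Mettl3, had 8.88 at 3 h, against 8.86 at 0 h. Its partner Mettl14, which helps to bind the RNA, had 5.82 at 3 h, against 6.25 at 0 h, a difference of -0.43 close to the floor. The subunit genes of this complex thus differed unequally. Mettl16, which methylates the U6 small nuclear RNA and the mRNA of an S-adenosylmethionine synthetase, had 7.27 at 3 h, against 7.73 at 0 h (difference -0.46). Mettl5, the m6A enzyme of the small ribosomal subunit RNA, had 9.57 at 3 h, against 9.86 at 0 h (difference -0.29). Mettl4, an enzyme for an adenosine of U2 small nuclear RNA in human cells, had 6.96 at 3 h, against 7.21 at 0 h, and the demethylase gene Alkbh5 had 9.18 at 3 h, against 9.32 at 0 h. None of the 6 reached 1.5-fold.

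Outside the members, 9 partners of the writer complex and related genes were split, with 4 higher and 5 lower at 3 h and a median of -0.05. Virma, the large scaffold subunit, had 8.61 at 3 h, against 8.19 at 0 h (difference 0.41). Pcif1, the cap adenosine methyltransferase, differed by 0.40 and the demethylase gene Fto by -0.29. The 8 m6A reader genes had a median of 0.06, with 6 higher and 2 lower, and lay between -0.10 (Igf2bp1) and 0.13 (Ythdf3). None of these partner and reader genes reached 1.5-fold.

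Cytosolic tRNA methyltransferases and their helpers were the largest role, with 21 measured and 16 at or above the floor. At 3 h 11 were lower and 5 higher, and the median was -0.08. It was -0.17 with no floor and -0.15 with a floor of 6.70, and the mean was -0.18. Without probe sets whose names carry an _a, _s or _x suffix, given to those that match several transcripts of the same or other genes, it was -0.13. Besides Trmt61a, the genes furthest down were Ftsj1, Nsun2, Trmt2a and Trmt10a. Ftsj1, the enzyme for ribose methylation of the anticodon loop, had 9.0 at 3 h, against 9.41 at 0 h (difference -0.41). Wdr6, its partner in that reaction and named after its values were seen, had 11.07 at 3 h, against 10.50 at 0 h, so this pair differed in opposite directions. Nsun2, the main 5-methylcytosine enzyme of tRNAs, had 11.22 at 3 h, against 11.62 at 0 h (difference -0.39). Trmt2a, which makes 5-methyluridine in the T loop, differed by -0.35 (6.80 at 3 h, 7.15 at 0 h), and Trmt10a, an enzyme for 1-methylguanosine, by -0.34 (7.86 at 3 h, 8.20 at 0 h).

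Mettl1, which makes 7-methylguanosine in tRNAs, had 7.62 at 3 h, against 7.91 at 0 h (difference -0.29). Its partner gene Wdr4 had 8.22 at 3 h, against 8.67 at 0 h (difference -0.46), so both subunit genes were lower. Trmt5, which methylates the guanosine next to the anticodon, differed by -0.20, and Trmt112, the small activator of several methyltransferases including the METTL5 and ALKBH8 proteins, by -0.10 (12.31 at 3 h, 12.41 at 0 h). The wobble uridine methyltransferase gene Alkbh8 (-0.06), the dimethylguanosine gene Trmt1 (-0.06) and the 3-methylcytidine gene Mettl2 (-0.05) lay near 0. The 5 genes higher at 3 h stayed within a narrow band, namely Trmt6 (0.01), Trmt10b (0.02), Trmt1l (0.03), Trmt44 (0.06) and Mettl6 (0.11), another 3-methylcytidine enzyme. Trmt44 reached the floor only at 3 h (5.75 at 3 h, 5.69 at 0 h), so the floor fixed its direction. Trmt11, Trmt12, Trmt13, Trmt9b and Nsun6 were below the floor on both arrays.

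Pseudouridine synthases had the lowest median of any role, -0.43, over the 4 of 5 genes at or above the floor. All 4 were lower at 3 h, and Pus3, set aside by the floor, had 5.03 at 3 h and 5.32 at 0 h, so that the median over all 5 was -0.30. Pus7, which modifies tRNAs and mRNAs, had 9.05 at 3 h, against 9.60 at 0 h (difference -0.55). Pus10, an enzyme for the T loop, had 9.43 at 3 h, against 9.73 at 0 h, and Pus7l, the paralog of Pus7, had 7.64 at 3 h, against 7.84 at 0 h. Of the pseudouridine synthase genes only Pus1 reached 1.5-fold. Synthase genes outside the members were mixed. Trub1, the synthase for the T loop, had 7.52 at 3 h, against 8.32 at 0 h (difference -0.80), and Dkc1, the synthase of small nucleolar ribonucleoproteins, had 10.92 at 3 h, against 11.56 at 0 h (difference -0.64). Rpusd2 differed by -0.12, Trub2 (-0.07), Rpusd3 (-0.03) and Rpusd4 (0.01) lay near 0, and Rpusd1 (0.15) was higher at 3 h.

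**Figure D2:**
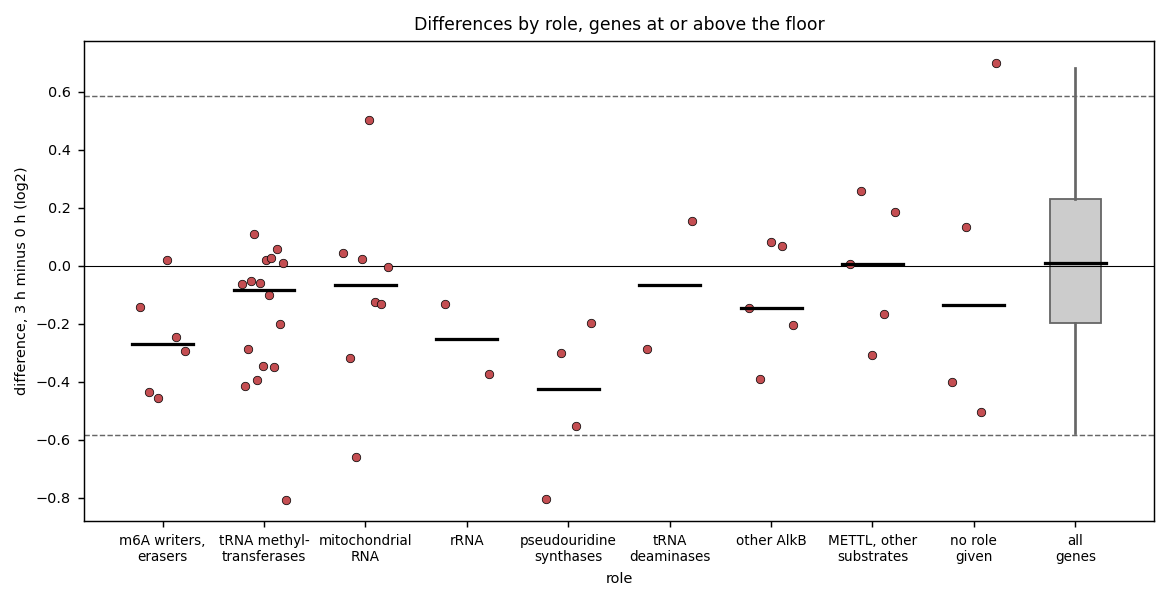
Difference in log2 expression, 3 h minus 0 h (y axis), of the 52 members at or above the floor, 1 point per gene, by role (x axis). Black bars are medians, dashed lines mark 1.5-fold, and the grey box and whiskers give the 25th to 75th and the 5th to 95th percentiles of all 9284 genes. Pseudouridine synthases have the lowest median (-0.43), and the METTL proteins with other substrates lie around 0.

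Of the modifiers of mitochondrial RNA, 8 were measured, all at or above the floor, with 5 lower and 3 higher at 3 h and a median of -0.06. The median was -0.13 both with a floor of 6.70 and without probe sets with an _a, _s or _x suffix. This role held both Mettl8 at one end and Nsun4 at the other. Mettl17, an assembly factor of the small mitochondrial ribosomal subunit, had 8.59 at 3 h, against 8.90 at 0 h (difference -0.32). Trmt10c, a subunit of mitochondrial RNase P that also methylates tRNAs, had 8.89 at 3 h, against 9.02 at 0 h, and its partner gene Hsd17b10 had 9.01 at 3 h, against 9.33 at 0 h. Trmt2b differed by -0.13, Trmt61b by -0.01, Nsun3 by 0.02 and Mettl15 by 0.04. Mterf4, whose protein recruits that of Nsun4 and which was named after its values were seen, differed by -0.08, so the higher value of Nsun4 was not shared by its partner.

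The enzymes of ribosomal RNA among the members were Ftsj3, a factor of pre-rRNA processing, and Nsun5, the 5-methylcytosine enzyme of the large subunit RNA. Ftsj3 had 8.23 at 3 h, against 8.36 at 0 h, and Nsun5 had 7.63 at 3 h, against 8.0 at 0 h (difference -0.37). Both were lower. The list of other rRNA modifiers and small nucleolar ribonucleoprotein genes leaned the same way, with 17 of 19 lower and a median of -0.20. By 1.5-fold 1 of them (Dkc1) was lower, which is 5.26%, beside 4.80% of all genes. Next to Dkc1 were Nop10 (-0.55) and Nop58 (-0.47), core proteins of the pseudouridylation and the ribose methylation particles.

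Adat2 and Adat3 encode the subunits of the deaminase that makes inosine at the wobble position of tRNAs. The catalytic subunit gene Adat2 had 7.53 at 3 h, against 7.81 at 0 h (difference -0.29). Adat3 had 6.38 at 3 h, against 6.22 at 0 h (difference 0.15), so this pair also went in opposite directions. Adat1, which acts next to the anticodon of alanine tRNA, was below the floor at 4.61 at 3 h and 4.86 at 0 h.

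Among the other AlkB dioxygenases, 5 of 6 reached the floor, with 3 lower and 2 higher at 3 h and a median of -0.14. Alkbh2, which repairs alkylated DNA, had 5.97 at 3 h, against 6.36 at 0 h (difference -0.39). Alkbh3, which acts on alkylated DNA and RNA, was just below the floor, with 5.19 at 3 h and 5.62 at 0 h. The mitochondrial Alkbh7 differed by -0.21 and the tRNA-modifying Alkbh1 by -0.14, while Alkbh6 (0.07) and Alkbh4 (0.08) lay near 0.

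Signs were split among the genes with other or unknown substrates. METTL proteins that act on proteins or other molecules had 5 genes at or above the floor, 3 higher and 2 lower, and a median of 0.01. The sign of that median turned with quantile normalization (-0.05), removal of an intensity trend (-0.02) and a floor of 6.70 (-0.06), and the mean was -0.0051. Mettl9, a histidine methyltransferase, had 11.60 at 3 h, against 11.41 at 0 h, and Mettl21a, which methylates a lysine of HSP70 chaperones, had 6.35 at 3 h, against 6.09 at 0 h. Mettl18, the histidine methyltransferase of a ribosomal protein, differed by 0.01. The membrane-bound Mettl7a1 had 8.31 at 3 h, against 8.62 at 0 h, and Mettl7a2, a close paralog whose probe set can share its signal, differed by -0.17. Without a role given here were Mettl27, Mettl25 (0.13), Mettl23 (-0.40) and Mettl26 (-0.51). When the members in the roles for RNA were taken with all AlkB dioxygenases, whatever their substrate, 31 of 43 were lower at 3 h (median -0.14), against 4 of 9 others (median 0.01). This difference was not tested, and 9 genes are few.

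The 16 members below the floor on both arrays lay between 2.30 and 5.62. They were Adat1, Alkbh3, Alkbh3os1, Mettl11b, Mettl21e, Mettl22, Mettl24, Mettl4-ps1, Mettl7b, Nsun6, Nsun7, Pus3, Trmt11, Trmt12, Trmt13 and Trmt9b. At 3 h 8 were lower and 8 higher, with differences from -0.47 (Trmt11) to 0.19 (Alkbh3os1). Since each of these rests on 1 probe set, a low value is no proof that the transcript was missing. Counted with them, 43 of all 68 members were lower, with a median of -0.14.

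**Figure D3:**
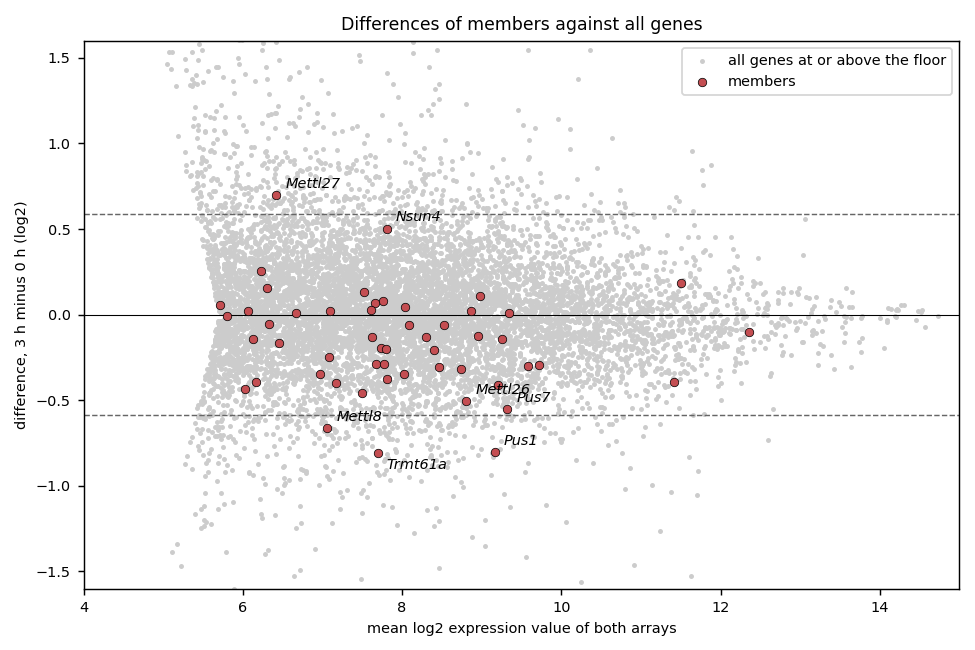
Difference in log2 expression, 3 h minus 0 h (y axis), against the mean log2 value of both arrays (x axis) for all 9284 genes at or above the floor (grey) and the 52 members (red). Members with a difference of at least 0.5 in size are named, dashed lines mark 1.5-fold, and 76 genes, none of them members, lie beyond the y axis. Members lie within the cloud of all genes, more of them below 0 than above.

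The lean was seen over most of the range of signal. Of the 10 members with a mean value of at least 9, 8 were lower at 3 h (median -0.30). Of all genes at that level 54.2% were lower, with a median of -0.02. From 8 to 9, 9 of 12 were lower (median -0.13), beside 48.5% of all genes (median 0.01). From 7 to 8 it was 11 of 17 (median -0.20), beside 46.1% of all genes (median 0.02). Below 7 it was 7 of 13 (median -0.01), beside 45.3% of all genes (median 0.04).

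Other tRNA modification genes were mixed. Of 11 genes that modify the wobble uridine, 6 were higher and 5 lower at 3 h (median 0.03). The mitochondrial gene Mto1, however, had 7.95 at 3 h, against 8.74 at 0 h (difference -0.79), and Trmu differed by -0.34. Elp4 differed by 0.55 with 5.20 at 0 h below the floor, so the floor fixed its direction. Over all 12 measured genes of this list 6 were higher and 6 lower, with a median of -0.03. Of 8 genes for the hypermodified adenosine next to the anticodon 7 were lower (median -0.09), with Lage3 (-0.39), Cdkal1 (-0.37) and Osgep (-0.32) furthest. Of 18 further tRNA modifiers and partners 14 were lower (median -0.12), among them Trub1 and Wdr4, whereas Thg1l differed by 0.48. The 4 genes at or above the floor in the list of cap and editing enzymes had a median of -0.0022, with Rnmt at 0.38, Tgs1 at -0.11 and Rngtt at -0.07. The editing enzyme genes Adar (5.68 at 3 h, 4.93 at 0 h) and Adarb1 (5.67 at 3 h, 5.37 at 0 h) were below the floor on both arrays. Over all 7 measured genes of that list 4 were higher, with a median of 0.07. Over all 77 of these associated genes, 52 were lower (67.5%), beside 48.5% of all genes, and the median was -0.11. Lower by 1.5-fold were 3 of them (Trub1, Mto1 and Dkc1), which is 3.90%, beside 4.80% of all genes. None was higher by 1.5-fold, beside 6.94% of all genes.

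**Figure D4:**
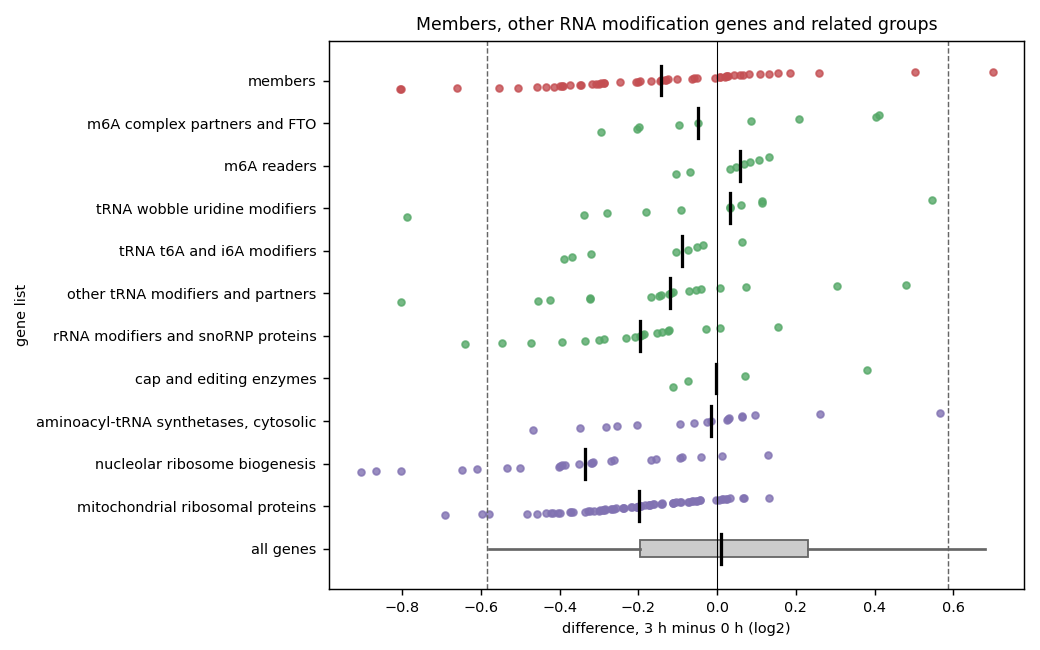
Difference in log2 expression, 3 h minus 0 h (x axis), of the members (red), the associated RNA modification lists (green) and 3 related groups (purple), 1 point per gene at or above the floor. Black bars are medians, dashed lines mark 1.5-fold, and the grey box and whiskers give the 25th to 75th and the 5th to 95th percentiles of all genes. The median of the members (-0.14) lies between those of the aminoacyl-tRNA synthetases (-0.02) and the nucleolar genes (-0.34).

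Set beside the groups of genes most like them, the members came between. Cytosolic aminoacyl-tRNA synthetases, which charge the same tRNAs, had a median of -0.02 with 9 of 17 lower at 3 h, and Cars (0.57) and Vars (-0.47) differed most. Nucleolar genes of ribosome biogenesis had a median of -0.34 with 22 of 24 lower, and Nolc1 (-0.91) and Wdr12 (-0.87) were lowest. Wdr12 reached the floor only at 0 h, with 5.10 at 3 h, so the floor fixed its direction. Mitochondrial ribosomal protein genes had a median of -0.20 with 63 of 72 lower, and Mrpl34 (-0.69) and Mrpl52 (-0.60) differed most. No test of the differences between these groups was made.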

How the data were processed

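Log2 expression of 20666 probe sets was deposited as a table with a column for each of 2 arrays. Per the submitters' processing notes, the authors made these deposited log2 values with RMA, which corrects background, normalizes quantiles and summarises probe sets, and the affy package. The sources used here do not give versions. RMA equalises the distribution of probe values over arrays, so a shift of all transcripts could not be seen, and it shrinks differences between dim signals. An array has no read depth.

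Gene names came from the platform annotation (17918 with 1 gene, 79 with several, 2669 with none) and probe sets were averaged per symbol. All 68 members were matched by Entrez ID to RefSeq genes of GRCm38.p6, which changed 0 symbols, and 57 had a promoter window in RefSeq's GRCm38.p6 table. Groups are the times in the sample titles. No test was possible with single arrays. The rule names every member, and the up to 3 genes furthest from 0 of each associated list and 2 of each related group. The partners Wdr6 and Mterf4 were named after their values were seen. The members, roles, lists and thresholds were chosen with earlier results of these data known. Calculations used Python 3.11.15, numpy 2.4.6, pandas 2.3.3, statsmodels 0.14.6 and matplotlib 3.10.9, and were tested on simulated data. Alternatives were quantile normalization of both columns, removal of an intensity trend (loess, span 0.3), other choices of probe sets, no floor, a floor of 6.70, other fold thresholds and means in place of medians.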

Additional observations from a re-analysis of the deposited data

How the results depend on the processing

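The median of the members, or the mean in the alternative that uses means, stayed below 0 under all 7 alternatives, between -0.20 (floor of 6.70) and -0.14. The median of all genes stayed between -0.01 and 0.01, and their mean was 0.03. The members lower by 1.5-fold numbered 3 and the higher 1 under every alternative of processing, with 1 exception. Without probe sets with an _a, _s or _x suffix 2 were lower, since that of Pus1, with an _a suffix, was left out. At a threshold of 0.32 on the log2 scale the counts were 14 lower and 2 higher, and at 2-fold 0 and 0. Members with a difference below 0 numbered 39 of 52 after quantile normalization and 37 of 52 after removal of an intensity trend. The sign of 4 members within 0.03 of 0 turned with the scaling: Mettl18 (-0.05 and -0.02), Trmt10b (both -0.01), Nsun3 (-0.04, quantile normalization only) and Trmt1l (-0.0035, quantile normalization only). Medians of roles depended on the genes counted, also those of the cytosolic tRNA methyltransferases, the mitochondrial modifiers and the METTL proteins with other substrates, as given above. With no floor that of the pseudouridine synthases was -0.30 and that of the tRNA deaminases -0.25. With the floor at 6.70 the deaminases, then 1 gene, had -0.29 and the other AlkB dioxygenases 0.067. The members without a role had a mean of -0.018, and a median of 0.13 without probe sets with an _a, _s or _x suffix. Each member has 1 probe set, so the probe set with the highest mean gave the same values. With 1 array per time no replicate could be left out, and dim signals near the floor limit what can be seen.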
